A study of Mus musculus with 30 samples.

Results

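The 6 loci described here are mouse genes for transcription factors that lie at some of the highest-scoring EPOP sites of embryonic stem cells: Nr4a3, Emx1, Onecut2, Nkx2-1, Ebf2 and Pax2. They were chosen by fixed windows in the mouse build mm9, and the windows were chosen from the EPOP peak scores measured in these cells. In each window the EPOP region with the highest score in replicate 1 without knock-down stood for the gene. An EPOP region was the merged stretch of EPOP peaks found in both lists without knock-down, and the 6 regions are 6 of 5720. The gene names come with the windows; peaks were not placed in exons, introns or promoters, since gene models of mm9 were not used here. In the order of chromosomes of the GRCm38 annotation, Nkx2-1 stands next to Nkx2-9 and Mbip, and Pax2 next to Hif1an and Slf2; whether a window reaches into a neighbouring gene was not examined.

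The cells were E14Tg2A, a mouse embryonic stem cell line kept without feeder cells in serum with the cytokine LIF. Chromatin immunoprecipitation with sequencing (ChIP-seq) was done for 6 targets, and 20 peak lists were used. For EPOP (C17orf96) and for Elongin B (EloB) these were 2 lists from cells with no knock-down and 2 from EPOP knock-down cells. Suz12 and H3K4me3 had 2 with no knock-down, 1 from EPOP knock-down and 1 from EloB knock-down cells, and Jarid2 and H3K27me3 had 1 with none and 1 from EPOP knock-down cells. Per the labels' protocols, EPOP was depleted by lentiviral short hairpin RNA followed by puromycin selection, and EloB by small interfering RNA transfected again 1 day later, so both are depletions and not deletions. The lists without knock-down of Suz12 and of H3K4me3 carry different names in their headers: Suz12 replicate 1 and H3K4me3 replicate 2 are named si ct, and Suz12 replicate 2 and H3K4me3 replicate 1 are named sh ct. For EPOP knock-down replicate 1 the title and antibody name EPOP while the description names IgG, and the IgG sample's description names C17orf96. It is therefore written of as the library titled EPOP knock-down replicate 1. The identity of these cells was not checked against marker genes, because the lists hold peaks and the 9 RNA samples were not analysed here.

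Polycomb repressive complex 2 (PRC2) methylates histone H3 at lysine 27 and keeps genes for developmental regulators silent in embryonic stem cells. Suz12 is a core subunit of PRC2, Jarid2 is an accessory subunit found in some PRC2 complexes, and EPOP is another accessory protein, which binds PRC2 on one side and the Elongin B and C pair on the other. Elongin B is known as a partner of the elongation factor Elongin A and of ubiquitin ligases. Many promoters of developmental genes in these cells carry both H3K27me3 and H3K4me3, the mark of promoters, a state called bivalent. Nr4a3 encodes an orphan nuclear receptor that is induced early after stimulation. Emx1 encodes a homeodomain factor of the developing cerebral cortex, and Nkx2-1 one of the thyroid, lung and ventral forebrain. Onecut2 encodes a cut-homeodomain factor of liver, pancreas and neurons, Ebf2 a helix-loop-helix factor of neurons and brown fat, and Pax2 a paired-box factor of kidney, eye, ear and the midbrain-hindbrain boundary.

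PRC2 in embryonic stem cells is found at stretches rich in CG dinucleotides, so the bases before the gene starts are shown, with CG in capitals. RefSeq promoters (build GRCm38.p6) were at hand for 4 of the 6 genes: Nr4a3, Emx1, Nkx2-1 and Pax2. Each run is the 250 bases before the annotated start, 5′ to 3′ on the gene's strand, and for Pax2 the start with the most CG of its 3 is shown. These positions are GRCm38 and cannot be set against the mm9 peaks.
Nr4a3, chr4:48045055-48045304, plus strand: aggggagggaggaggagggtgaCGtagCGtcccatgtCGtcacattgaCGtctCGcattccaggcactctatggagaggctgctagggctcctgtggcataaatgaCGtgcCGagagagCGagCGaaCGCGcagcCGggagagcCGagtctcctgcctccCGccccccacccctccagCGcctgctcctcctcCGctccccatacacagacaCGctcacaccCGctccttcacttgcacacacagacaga
Emx1, chr6:85187681-85187930, plus strand: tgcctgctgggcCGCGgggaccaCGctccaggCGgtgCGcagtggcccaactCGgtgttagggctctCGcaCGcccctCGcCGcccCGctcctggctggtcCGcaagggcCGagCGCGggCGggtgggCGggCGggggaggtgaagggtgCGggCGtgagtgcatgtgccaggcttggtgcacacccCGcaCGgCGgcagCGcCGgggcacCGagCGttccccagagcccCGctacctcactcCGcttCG
Nkx2-1, chr12:56536909-56537158, minus strand: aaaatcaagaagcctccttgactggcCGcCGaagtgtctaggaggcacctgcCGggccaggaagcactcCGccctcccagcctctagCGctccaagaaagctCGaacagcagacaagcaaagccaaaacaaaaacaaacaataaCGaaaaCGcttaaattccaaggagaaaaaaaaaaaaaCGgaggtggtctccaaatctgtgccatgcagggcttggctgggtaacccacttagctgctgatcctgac
Pax2, chr19:44756656-44756905, plus strand: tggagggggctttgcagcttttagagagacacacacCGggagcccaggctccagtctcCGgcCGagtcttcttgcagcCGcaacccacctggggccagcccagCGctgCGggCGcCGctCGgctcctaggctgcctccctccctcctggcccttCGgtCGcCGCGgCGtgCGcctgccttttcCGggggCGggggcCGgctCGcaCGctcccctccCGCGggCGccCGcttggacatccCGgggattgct
The Emx1 stretch held 30 CG and the Pax2 stretch 25, the Nr4a3 stretch 18 and the Nkx2-1 stretch 9, against a median of 6 over 32851 promoters of the table. Of those promoters, 94.1% had fewer CG than Emx1, 89.3% fewer than Pax2, 78.3% fewer than Nr4a3 and 59.7% fewer than Nkx2-1. The shown stretches thus ranged from far above the middle of all promoters to near it. The other starts of Pax2 had 20 and 5 CG. The motif CGCG, which reads the same on both strands, stood in the stretches of Nr4a3, Emx1 and Pax2 and in 33.8% of all promoters, and GCGC, which also does and can overlap it, stood in all 4 stretches and in 42.2% of all promoters. The Pax2 stretch had been picked for its CG, and the other promoters had not. Of the other Pax2 starts, the one with 20 CG held both motifs and the one with 5 CG held neither.

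The EPOP scores, which chose the loci, are given as a description. The score is the authors' own value for a peak, at least 50 in every list, and many peaks share the value 3100. Nr4a3 (chromosome 4, 48055325 to 48065953, mm9) had an EPOP score of 3233 in replicate 1, tied for rank 1 among the regions, and 3100 in replicate 2. Emx1 (chromosome 6, 85135660 to 85142557) had 3149 and 3006, at ranks 6 and 90. Onecut2 (chromosome 18, 64497150 to 64506763) had 3137 and 1565, at ranks 7 and 399, the widest gap between replicates among the 6. Nkx2-1 (chromosome 12, 57631407 to 57639351) had 3129 and 3100, at ranks 8 and 9. Ebf2 (chromosome 14, 67847483 to 67857882) had 3100 and 3219, tied for rank 11 and at rank 2. Pax2 (chromosome 19, 44822542 to 44837120) had 3100 and 2449, tied for rank 11 and at rank 160. The 6 regions were therefore near the top in replicate 1 by choice, and 4 of them were also among the first 100 in replicate 2.

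They were not a complete top list. Scores of at least 3100 in replicate 1 were shared by 38 regions, so 32 others scored as high. Just above Emx1 stood a region on chromosome 17, 86081253 to 86092721, with a score of 3189, and just below Nkx2-1 one on chromosome 9, 62982984 to 62999610, with 3129.29. The first region below 3100 was on chromosome 6, 52151769 to 52160017, with 3086. The 6 regions were also wide, from 6898 bp at Emx1 to 14579 bp at Pax2, which is wider than or equal to 97.1% and 99.8% of all EPOP regions. Widths are compared below with this in mind, since a wide region can hold several peaks.

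**Figure D1:**
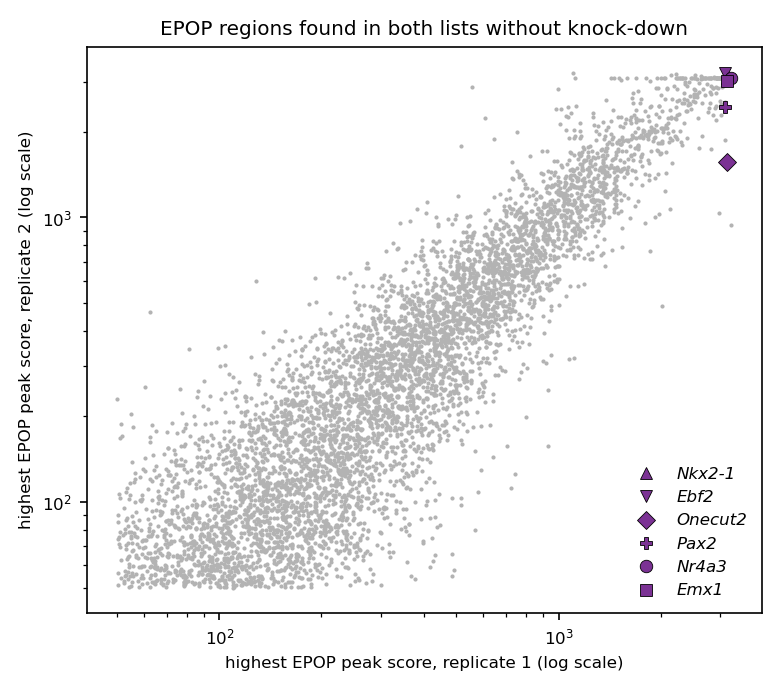
Highest EPOP peak score of each of the 5720 EPOP regions in replicate 1 (x axis, log scale) and replicate 2 (y axis, log scale), with the 6 loci marked by symbol. All 6 loci sit at 3100 or above in replicate 1, while Onecut2 at 1565 and Pax2 at 2449 lie lower in replicate 2.

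Without knock-down all 5 other targets had a peak in every one of their lists at all 6 EPOP regions. The loci thus carried EPOP, EloB, Suz12, Jarid2, H3K27me3 and H3K4me3 together. Over all EPOP regions the share with a peak in every list was 13.5% for EloB, 40.6% for Jarid2, 84.4% for H3K27me3, 89.4% for Suz12 and 95.9% for H3K4me3. The 32 other regions with scores of at least 3100 also had all of them in 32 of 32 for each target, so this full set was not particular to the 6 loci. Nr4a3, Emx1, Onecut2, Nkx2-1 and Ebf2 had a peak in 16 of the 20 lists, and Pax2 in 18.

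EPOP peaks covered most of each region without knock-down and were gone or short upon EPOP knock-down. At Nr4a3 the summed width of EPOP peaks was 9212 and 9855 bp without knock-down, and no peak was called in either knock-down list. At Onecut2 it was 9556 and 9504 bp, at Ebf2 10085 and 9616 bp, at Nkx2-1 5932 and 7945 bp and at Emx1 6870 and 6620 bp, again with no peak in either knock-down list. At Pax2 it was 13831 and 14352 bp without knock-down, 822 bp in the library titled EPOP knock-down replicate 1 and 2192 bp in replicate 2. Pax2 was thus the only one of the 6 with EPOP peaks left, both with and without the library whose labels conflict.

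These EPOP values are a description, because the loci were picked with the knock-down lists in view. No peak in either knock-down list was found at 5 of the 6 regions, and at 90.8% of all EPOP regions; 9.25% kept one. Of the 32 other regions with scores of at least 3100, 9 lacked a peak in both lists: 3 had one in replicate 1 and 22 in replicate 2. Peaks too weak for the score minimum of 50 are not in the lists, and the read depth is unknown, so a missing peak does not measure the signal that was left.

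The EPOP peaks left at Pax2 overlapped EloB peaks of the lists without knock-down. The replicate 1 peak, at 44834742 to 44835563, scored 63.0, and 84.8% and 100% of it lay inside EloB peaks of the lists without knock-down. In replicate 2 the peaks at 44833238 to 44833880 and at 44833889 to 44835437 scored 50.7 and 97.1, and both lay entirely inside EloB peaks of both lists. A further replicate 2 peak at 44820847 to 44821649, outside the main region, scored 111 and overlapped EloB in replicate 2 alone, by 95.9% of its length. All 4 lay entirely within Jarid2 peaks of the list without knock-down. Of the main Pax2 region, Jarid2 covered 59.97% and EloB of both lists 32.7%. The left peaks in the main region had 0% in H3K4me3 of replicate 1 without knock-down, and 97.7% to 100% in replicate 2. The peak outside it lay entirely within H3K4me3 of both. Whether the left peaks lay on any target more often than other bases of the region was not tested. Whether EPOP peaks left elsewhere lie on EloB was not examined.

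EloB peaks were narrower than EPOP peaks at the same loci, and no EloB peak was called at any of the 6 upon EPOP knock-down. At Nkx2-1 the summed EloB width was 2359 and 2704 bp without knock-down, and these peaks scored 481 and 810, at ranks 33 and 10 of their lists. At Pax2 it was 4787 and 6792 bp with top scores of 253 and 535. At Emx1 it was 3801 and 3243 bp with top scores of 230 and 276. These 3 loci had the highest EloB scores of the 6 in replicate 1; in replicate 2 the order was Nkx2-1, Pax2 and Ebf2. At Ebf2 the width was 3515 and 5648 bp with top scores of 68.9 and 345, ranks 947 and 135, the ranks farthest apart between the 2 lists. At Nr4a3 it was 2051 and 3532 bp with top scores of 144 and 297. At Onecut2 it was 2807 and 3810 bp with top scores of 99.3 and 163, the lowest of the 6 in replicate 2.

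The conditions did not overlap at any locus. The mean EloB width without knock-down was 2532 ± 244 bp at Nkx2-1 and 5790 ± 1418 bp at Pax2 (SD, n = 2), the lowest and highest of the 6, and it was 0 in both knock-down lists at every locus. EloB was narrower in both knock-down lists than in both others at 6 of 6 loci and at 100% of the EPOP regions with EloB. A two-sided exact permutation test of width gave p = 0.333 at each locus, also after Benjamini-Hochberg adjustment over the 6, which is the smallest p that 2 lists against 2 allow. EloB peaks were missing from both knock-down lists at 6 of 6 loci and at 99.4% of the 774 EPOP regions that had EloB in both lists without knock-down, so the 6 loci were like the rest. The EloB replicates were made with different antibodies, the same one in the same-numbered list of both conditions. The permutation test did not use this pairing, and the SD between the lists includes any difference between the antibodies. The knock-down lists held 164 and 127 EloB peaks in all, against 1296 and 1542 without.

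Within the EPOP regions, EloB occupied part of the stretch that PRC2 covered. Bases called for EloB in both lists made up 16.0% of the EPOP region at Nr4a3 and 43.9% at Emx1, with the other 4 loci in between. All of these bases lay inside the Jarid2 peaks and inside Suz12 peaks of both lists at all 6 loci, and 98.3% to 100% lay inside H3K27me3 peaks. The median over the 761 EPOP regions with such bases was 100% for each of these as well. Of the EPOP region itself, Suz12 of both lists covered 86.95% (Nr4a3) to 97.96% (Pax2), and H3K27me3 86.1% (Nr4a3) to 100% (Pax2). Jarid2 covered 59.97% (Pax2) to 86.37% (Emx1). With so much of the region covered, shares near 100% for Suz12 and H3K27me3 say little about EloB itself. Whether EloB bases lay inside Jarid2 peaks more often than other bases of the region was not tested. H3K4me3 of both lists covered 100% of the EloB bases at Nr4a3 and 92.1% at Nkx2-1, but 62.5% at Ebf2, 62.0% at Emx1, 53.1% at Onecut2 and 48.5% at Pax2, against a median of 100% over the 761 regions. The 6 loci are wider than most of those regions, and the part of width in this was not tested. Of the whole EPOP region H3K4me3 of both lists covered 26.2% (Pax2) to 69.4% (Nr4a3), a lower share than of the EloB bases at all 6 loci. The median of that cover over the 761 regions was 66.3%.

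Suz12 peaks were called at all 6 loci in all 4 lists. Their top score was 3100 throughout, a value that 448 to 1925 Suz12 peaks of each list share, so the scores cannot show a difference in signal. At Pax2 the Suz12 width was 23935 and 14379 bp without knock-down, 15157 bp upon EPOP knock-down and 23811 bp upon EloB knock-down. At Onecut2 it was 17230 and 8419 bp without, 9189 bp upon EPOP knock-down and 17343 bp upon EloB knock-down. At Nkx2-1 it was 16159 and 6918 bp without, 10536 bp upon EPOP knock-down and 14543 bp upon EloB knock-down. At these 3 loci the Suz12 peak of replicate 1 ran farthest past the EPOP region.
At Emx1 the values were 10049, 6566, 7151 and 9734 bp in the same order, at Nr4a3 11299, 9242, 10246 and 10993 bp, and at Ebf2 11468, 9694, 10306 and 11760 bp. The EPOP knock-down value lay between the 2 lists without knock-down at all 6 loci.

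Suz12 was kept at 6 of 6 loci in either knock-down, and at 99% (EPOP) and 98.7% (EloB) of the EPOP regions with Suz12. It was wider than in both lists without knock-down at 0 of 6 loci upon EPOP knock-down, against 12.6% of all regions, narrower than both at 0 of 6, against 23.4%, and wider at 2 of 6 upon EloB knock-down (Onecut2 and Ebf2), against 56.4%. The log2 width ratio to the mean of the lists without knock-down had a median of −0.17 over the 6 loci upon EPOP knock-down, from −0.48 at Onecut2 to −0.0034 at Nr4a3, and the median over all EPOP regions was −0.097. Upon EloB knock-down the median was 0.27, from 0.098 at Nr4a3 to 0.44 at Onecut2, and 0.25 over all regions.
Each direction depended on 1 list. Against replicate 1 alone the medians were −0.55 upon EPOP and −0.024 upon EloB knock-down, and against replicate 2 alone 0.12 and 0.65. Wider peaks than in replicate 1 were found at 0 and 2 of 6 loci (14.1% and 57.5% of all regions), and than in replicate 2 at 6 of 6 in both knock-downs (73.9% and 91%). The lists without knock-down differed from each other by a median of −0.67 (replicate 2 over replicate 1), more than either knock-down did from their mean. When each knock-down is set beside the list whose header names its method, the ratios ran from 0.076 to 0.61 for EPOP (replicate 2, sh ct) and from −0.15 to 0.036 for EloB (replicate 1, si ct).

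**Figure D2:**
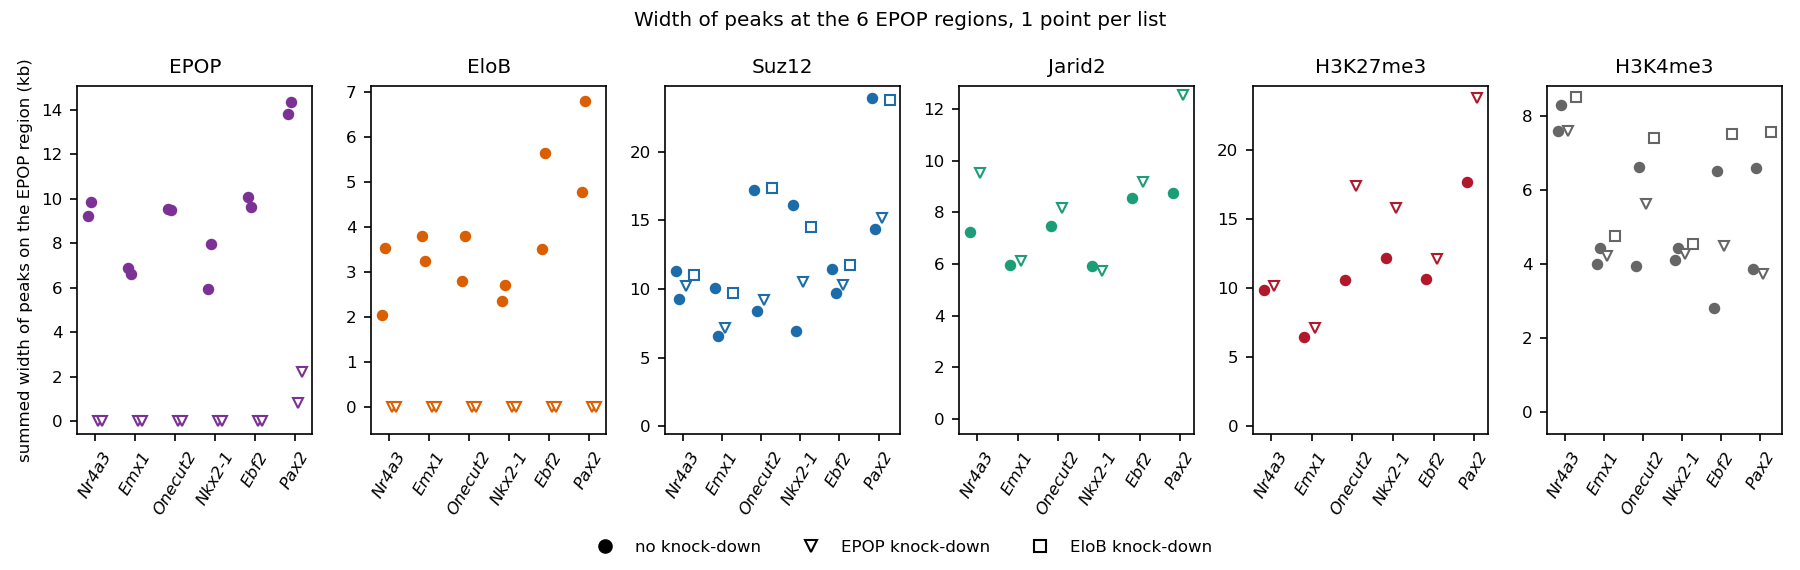
Summed width (y axis, kb) of the peaks that overlap the EPOP region of each locus (x axis), 1 point per list, for the 6 targets; filled circles are lists without knock-down, open triangles EPOP knock-down and open squares EloB knock-down. EloB triangles are at 0 at all 6 loci, and the Suz12 triangle lies between the 2 circles at each locus.

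Jarid2 kept a peak at all 6 loci upon EPOP knock-down (98.4% of the EPOP regions with Jarid2) and was wider at 5 of them, in 1 list per condition. At Pax2 the Jarid2 width was 8743 bp without and 12558 bp with knock-down, a log2 ratio of 0.52, and at Nr4a3 7225 and 9528 bp, a ratio of 0.40. These were the 2 highest ratios of the 6. With higher-scoring peaks alone Nr4a3 had 0.77, Emx1 0.56, Pax2 0.52 and Ebf2 0.42, so that order did not hold. At Onecut2 it was 7489 and 8185 bp (0.13), at Ebf2 8574 and 9175 bp (0.098) and at Emx1 5969 and 6114 bp (0.035). At Nkx2-1 it was 5909 bp without and 5714 bp with knock-down (−0.048), the only locus of the 6 where it was narrower; over the whole window, where the knock-down list had an added peak, the ratio was 0.33. The median of the 6 ratios was 0.11, beside 0.26 over all EPOP regions with Jarid2 in both lists and 0.14 over the 32 other regions with scores of at least 3100.
A wider Jarid2 peak in the knock-down list was found at 87.9% of the EPOP regions with Jarid2, so 5 of 6 is close to that share. At Nr4a3, Emx1, Ebf2 and Pax2 the knock-down list had fewer, longer peaks, as where the 2 Jarid2 peaks of Nr4a3 without knock-down gave way to 1. That was seen at 4 of 6 loci, at 4.69% of all regions and at 6 of the 32 other regions with scores of at least 3100. Only a region with more than 1 Jarid2 peak without knock-down can be counted so. How many regions had that was not examined. Top scores ranged from 597 at Onecut2 to 1935 at Nkx2-1 without knock-down and from 1388 at Onecut2 to 3100 at Pax2 with it. In the whole knock-down list 0.74% of peaks scored at least 3100, against 0.076% without, so the scores of the 2 lists are not alike. At Nkx2-1 the top score was 2867 with knock-down, but its rank went from 20 to 39. The ranks of the other loci were better with knock-down. The knock-down list was longer, with 3665 peaks against 2641, and there is no replicate. With both lists cut by score to equal length the median stayed at 0.11.

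H3K27me3, the mark PRC2 sets, remained at all 6 loci upon EPOP knock-down (91.6% of the EPOP regions with the mark), and the peaks in that list were wider at each. At Onecut2 the H3K27me3 width was 10608 bp without and 17389 bp with knock-down, a log2 ratio of 0.71, at Pax2 17685 and 23749 bp (0.43), and at Nkx2-1 12140 and 15806 bp (0.38). At Ebf2 it was 10633 and 12100 bp (0.19), at Emx1 6424 and 7102 bp (0.14) and at Nr4a3 9868 and 10116 bp (0.036). All 6 ratios were above 0, with Onecut2 highest and Nr4a3 close to no difference. Their median was 0.28, and 0.21 over all EPOP regions. A wider peak was seen at 6 of 6 loci and at 64.1% of all EPOP regions with H3K27me3, and at 29 of the 32 other regions with scores of at least 3100. At Nkx2-1 the top score was lower upon EPOP knock-down, 863 against 1044, and its rank went from 78 to 744. The other loci had higher top scores, such as 2029 against 596 at Emx1. Ranks were better at Nr4a3, Emx1 and Pax2, but worse at Onecut2 (47 to 167) and Ebf2 (167 to 175). The knock-down list was the shorter, 7956 against 8811 peaks. Its highest score was 3203 against 1869, so scores of the 2 lists are not alike.

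At Onecut2, Nkx2-1, Ebf2 and Pax2 most of the added H3K27me3 width lay outside the EPOP region. At Onecut2, Nkx2-1 and Pax2 part of it had been called without knock-down, as separate peaks beside the region. Over the whole window the Onecut2 ratio was 0.11, the Pax2 ratio 0.14 and the Nkx2-1 ratio 0.075. Ebf2 stayed at 0.19, and Nr4a3 and Emx1 were higher, at 0.13 and 0.33. Inside the 6 regions H3K27me3 already covered from 86.1% (Nr4a3) to 100% (Pax2) without knock-down, and from 91.5% (Nr4a3) to 100% (Nkx2-1, Ebf2 and Pax2) with it. With peaks counted only inside the EPOP region the median ratio was 0.056. Fewer H3K27me3 peaks overlapped the EPOP region at 4 of 6 loci, at 15.5% of all regions and at 13 of the 32 other regions with scores of at least 3100. Here too only a region with more than 1 peak without knock-down can be counted. At Emx1 3 peaks became 1, and at Nkx2-1 and Ebf2 2 became 1. At Nr4a3 3 peaks became 1 as well, but the first of them was still called in the knock-down list, at 48054596 to 48055282, just short of the EPOP region. At Onecut2 the wider value came from a peak that joined the main region to the EPOP region upstream of it in chromosome order, and with overlap of at least 0.5 of the shorter the ratio turned to −0.31. With 1 list per condition these values compare the libraries only.

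H3K4me3 was kept at all 6 loci in both knock-downs (99.8% of the EPOP regions with the mark for EPOP, 99.9% for EloB), and the loci differed among themselves in it. With higher-scoring peaks alone it was kept at 5 of 6 upon EPOP knock-down, Onecut2 being lost. Nr4a3 had an H3K4me3 peak of score 3100 in all 4 lists, a value shared by 7365 to 9745 peaks of each, and 19.1% to 23.1% of each list scored at least as high. By contrast, the top scores of the other 5 loci ran from 289 (Onecut2 upon EPOP knock-down) to 2696 (Pax2 upon EloB knock-down). The best rank among those 5 was 10977. Nr4a3 was thus the one of the 6 whose H3K4me3 peak reached that shared value. The mark was also broadest at Nr4a3, with 7584 and 8281 bp without knock-down, 7575 bp upon EPOP knock-down and 8515 bp upon EloB knock-down.

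At the other loci H3K4me3 covered less and the lists without knock-down differed. At Ebf2 its width was 2807 and 6514 bp without knock-down, 4471 bp upon EPOP and 7500 bp upon EloB knock-down. At Pax2 it was 3863 and 6577 bp without, 3727 and 7553 bp upon EPOP and EloB knock-down, and at Onecut2 3952, 6612, 5622 and 7400 bp in that order. At these 3 loci replicate 2 was far above replicate 1. At Emx1 the order gave 4006, 4440, 4215 and 4746 bp and at Nkx2-1 4094, 4434, 4278 and 4524 bp, so the lists were close together.

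Upon EPOP knock-down the median log2 ratio of H3K4me3 width to the mean of the lists without knock-down was −0.031, and −0.0028 over all EPOP regions. Against replicate 1 alone, named sh ct, the median was 0.068, with Ebf2 at 0.67, Onecut2 at 0.51 and Pax2 at −0.052, and against replicate 2 alone it was −0.18, so the direction depended on the list. The Nkx2-1 ratio to the mean was 0.0047, and −1.53 with higher-scoring peaks alone, and the Nr4a3 ratio was −0.067, and −0.42 with lists of equal length. H3K4me3 was wider than both lists at 0 of 6 loci (23.3% of all regions) and narrower than both at 2 of 6, Nr4a3 and Pax2 (23.8%). At Nr4a3 the width was nearly that of replicate 1, 7575 against 7584 bp, a log2 ratio of −0.0017. The mark was wider than replicate 1 at 4 of 6 (74% of all regions) and than replicate 2 at 0 of 6 (25.1%). Pax2 had the lowest ratio, −0.49, which lay at percentile 1.68 of all EPOP regions. Without replicate 2 it was −0.052, since a peak of 2451 bp and score 165 at Pax2 in replicate 2 was in neither the knock-down list nor replicate 1.
Upon EloB knock-down H3K4me3 was wider than in both lists at 6 of 6 loci, against 62.3% of all EPOP regions and 23 of the 32 other regions with scores of at least 3100. The ratios to the mean ran from 0.085 at Nkx2-1 to 0.69 at Ebf2, with a median of 0.33 beside 0.12 over all regions. The lists without knock-down differed from each other by a median of 0.45 (replicate 2 over replicate 1), more than the knock-down did from their mean. That difference was 1.21 at Ebf2, 0.77 at Pax2 and 0.74 at Onecut2, the loci with the highest ratios. Wider peaks were seen at 6 of 6 loci against each list alone, and at 93.3% (replicate 1) and 63.7% (replicate 2) of all regions. Against replicate 2, named si ct, they ran from 0.029 to 0.20 with a median of 0.13, beside 0.038 over all regions. That list was the longest of the 4, with 47296 peaks against 42857 and 35027 without knock-down, and with all cut by score to the shortest the median was 0.31, with all 6 ratios above 0 and Ebf2 at 0.45.

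**Figure D3:**
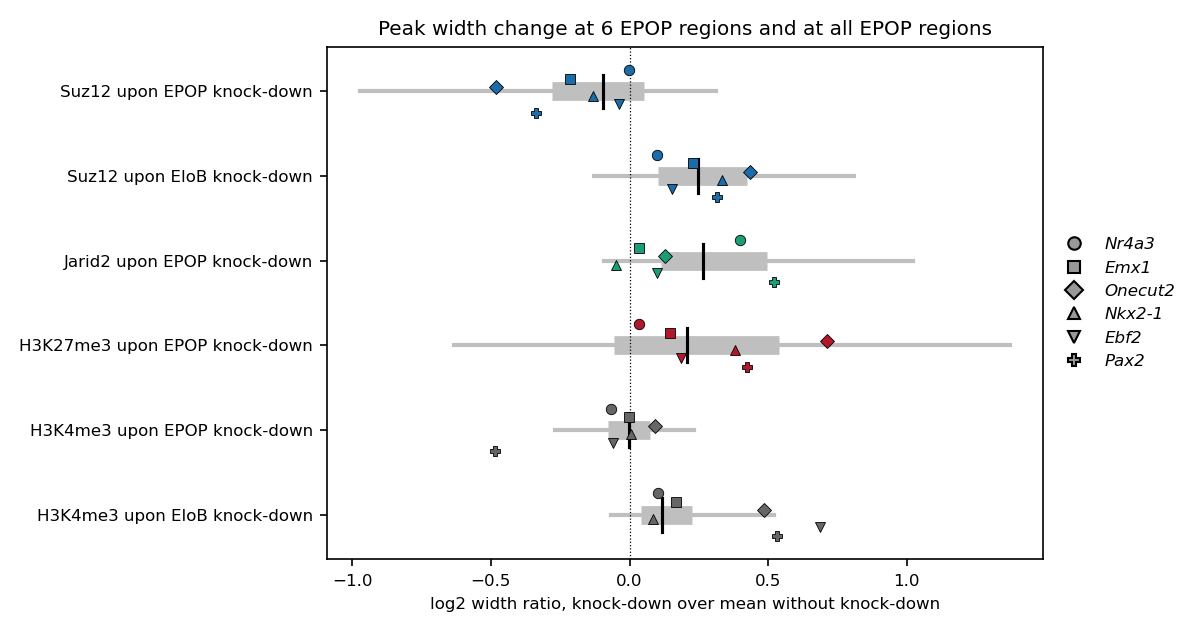
Log2 ratio of summed peak width, knock-down over the mean without knock-down (x axis), for 6 comparisons (rows); symbols are the 6 loci, and grey bars show all EPOP regions with peaks in both conditions (thin, 5th to 95th percentile; thick, 25th to 75th; black tick, median). All 6 loci lie above 0 for H3K27me3 upon EPOP knock-down and for H3K4me3 upon EloB knock-down, and Pax2 lies at −0.49 for H3K4me3 upon EPOP knock-down. For Suz12 and H3K4me3 the mean joins a list named sh ct and a list named si ct. To the sh ct list of H3K4me3 alone, replicate 1, that Pax2 ratio was −0.052.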

How the data were processed

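Peak lists of 20 ChIP samples were analysed. The submitters' processing notes list Bowtie, TopHat, Cufflinks and mm9 with no role. Peak names carry MACS per the file headers; settings of the caller are not given in the sources used here. Column 5, a score deposited by the authors, was used to rank and filter peaks within a list. Scores of different lists are also printed side by side, but they were not brought to a common scale. Read depth is unknown. Groups and replicate numbers follow the sample titles. Nothing in the labels ties replicates to separate cultures, and p-values therefore measure a spread that may be technical. For EloB the replicates also differ in antibody, so their spread includes any effect of that.

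An EPOP region was the merged stretch of EPOP peaks called in both lists with no knock-down and overlapping by at least 1 bp. A locus was kept if its region overlapped a peak in every list without knock-down and in a knock-down list. Width was the summed length of whole overlapping peaks, and its ratio was formed over the mean of the lists without knock-down where both conditions had peaks. EloB width was tested by an exact permutation test that did not pair the lists by antibody. EPOP values were not tested, and comparisons with 1 knock-down list were not tested. All 6 loci are named, with the regions next to them in score. Loci and tests were chosen with earlier results of these data known. As alternatives, each list was reduced to its higher-scoring peaks, whole windows were used, and further ones were overlap of at least 0.5 of the shorter, lists of equal length, each replicate left out and same-numbered lists paired. Peaks clipped to the EPOP region, the regions with scores of at least 3100, the numbers of peaks and the bases shared between targets were added after the data were seen. Related genes and pluripotency markers had also been listed, but no mm9 annotation was used here. Scripts ran in Python 3.11.15 with SciPy 1.17.1, NumPy 2.4.6 and, for plots, Matplotlib 3.10.9. Overlaps were checked against bedtools 2.31.1, and the code was tested on simulated data.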

Additional observations from a re-analysis of the deposited data

How the results depend on the processing

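Of 104 alternative values of counts and medians, 93 stayed within 1.5 times the count, or within the spread between lists or 0.1 log2, and 11 moved. Of 235 values of single loci, 44 moved and 3 reversed. A change of sign within those limits was counted as staying, so more values changed direction than were counted as reversed. The Suz12 median upon EPOP knock-down was −0.17, but 0.12 without replicate 1 of the lists without knock-down and 0.035 with clipped peaks. The count of loci with EPOP left was 0 instead of 1 when only higher-scoring peaks were used and with lists of equal length. The log2 EPOP width ratio, which rests on Pax2, was −3.23, and was −3.51 in the whole window, −3.39 with same-numbered lists paired (replicate block), and from −4.10 to −2.68 with each list left out; the pairing changed no count. The Jarid2 median was 0.47 with higher-scoring peaks and 0.23 in whole windows, where Nkx2-1 turned from −0.048 to 0.33. The H3K27me3 median was 0.40 with higher-scoring peaks, 0.13 in whole windows and 0.056 with peaks clipped to the EPOP region. At Onecut2 the Suz12 ratio upon EPOP knock-down was 0.017 with clipped peaks and from −0.91 to 0.13 with each list without knock-down left out, and the H3K27me3 ratio was −0.31 with overlap of at least 0.5 of the shorter. The cause was not tested, except that clipping removes peak length outside the EPOP region by construction. Unknown depth limits all of these: peaks below a score of 50 are not in the lists, and Suz12, Jarid2, H3K27me3 and H3K4me3, with 1 list per knock-down, were compared without a test.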

Other observations

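The 6 windows held 15 EPOP regions, and the 9 beside the main ones were smaller sites: 1116 to 3879 bp wide, with scores from 96.3 to 999 in replicate 1. They lay 1 at Emx1, 1 at Onecut2, 4 at Nkx2-1 and 3 at Pax2, and none at Nr4a3 and Ebf2. All 9 had Suz12 in both lists and H3K27me3 without knock-down, and all 9 had both upon EPOP knock-down. Of all EPOP regions, 89.4% had Suz12 in both lists and 84.4% had H3K27me3 without knock-down. Of those, 99% and 91.6% kept it upon EPOP knock-down. Jarid2 was found at 5 of them without knock-down (40.6% of all EPOP regions) and at 6 with EPOP knock-down. The added one was at Nkx2-1, chromosome 12, 57620051 to 57623044 (mm9), where the Jarid2 peak of the knock-down list scored 183. That list was the longer, with 3665 peaks against 2641. How often other EPOP regions gained a Jarid2 peak was not examined. EloB was found in both lists at 1 of the 9, the Onecut2 site at chromosome 18, 64490905 to 64494499, and in replicate 2 alone at the Pax2 site at chromosome 19, 44819899 to 44821852. Of all EPOP regions, 13.5% had EloB in both lists. No EloB peak was called at any of the 9 upon EPOP knock-down. Of the EPOP regions with EloB in both lists, 99.4% lacked one then. The same Pax2 site was the 1 of the 9 with an EPOP peak upon EPOP knock-down, in replicate 2 (9.25% of all EPOP regions in either list). H3K4me3 was found at 7 of the 9 in at least 1 list without knock-down, and at 7 upon either knock-down. Of all EPOP regions, 95.9% had it in both lists without knock-down, a stricter count. The 2 sites without H3K4me3 were both at Nkx2-1.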
